A study of Homo sapiens with 10 samples.

Results

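YAP1 and WWTR1 (which encodes TAZ), the 4 TEAD transcription factor genes TEAD1 to TEAD4, and the target genes CCN1, CCN2, ANKRD1 and AMOTL2 were examined in RNA-seq of 2 human endothelial cell lines. These 10 genes were chosen by name for their place in the Hippo pathway and not by a rule on their values, though earlier results of these data were known. They were found by matching Ensembl identifiers to gene symbols in the GENCODE 44 annotation. The count table listed 60448 genes, of which 16310 passed the filter on low counts and were tested. All 10 genes were among the tested genes, and their lowest count in any library was 229 (TEAD3).

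The libraries came from untreated cells with a wild-type genotype label, 5 biological replicates of EA.hy926 and 5 of HMEC-1, all grown to confluence. EA.hy926 is a hybrid line made by fusing human umbilical vein endothelial cells with A549, an epithelial carcinoma line. HMEC-1 cells are microvascular endothelial cells of the dermis that carry the SV40 large T antigen. Both media contained serum, L-glutamine, gentamicin and penicillin, but EA.hy926 cells were kept in Advanced DMEM, whereas HMEC-1 cells were kept in MCDB 131 with a larger share of serum and with epidermal growth factor and hydrocortisone. In stained untreated monolayers, the paper describes EA.hy926 as uniform with contact inhibition and HMEC-1 as denser and overgrown. Cell density in the flasks used for RNA is not given. Line, medium and any difference in density therefore cannot be told apart in any comparison made here. In bulk RNA, fewer cells that express a gene and less RNA of it per cell cannot be told apart either.

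Total counts of the EA.hy926 libraries ranged from 34846046 to 39899324, and those of the HMEC-1 libraries from 33391640 to 43877224. All 12 genes of a list of endothelial markers passed the filter, and their counts scaled to library size (CPM) summed to 5987 to 6711 in the EA.hy926 libraries and to 2104 to 2174 in the HMEC-1 libraries. Of these markers, 10 had higher and 1 had lower EA.hy926 levels at an adjusted p under 0.05, against 42.6% and 43.3% of all tested genes, among them ESAM (log2 fold change, log2FC, 5.28), PECAM1 (2.68) and CLDN5 (-4.27), and the exception was KDR, which encodes a VEGF receptor, with a log2FC of -0.04 (-0.18 and past the threshold with library totals, -0.13 and past it without EA.hy926 replicate 1). Of 10 epithelial markers, 7 were tested, and 4 were higher and 3 lower in EA.hy926 at the same threshold. The list summed to 1275 to 1389 CPM in the EA.hy926 libraries and to 429 to 491 CPM in the HMEC-1 libraries. Most of these sums came from KRT7 (means of 622 against 314 CPM), KRT8 (546 against 19.2) and KRT18 (161 against 108). KRT8 (log2FC 4.83) and EPCAM (1.83) were higher in EA.hy926, and KRT19 (-4.71) and CLDN7 (-4.54) were lower. In EA.hy926 libraries, CLDN5 had 0 to 5 counts, KRT19 2 to 7 and CLDN7 4 to 12. EPCAM had 4 to 22 counts in HMEC-1 libraries. The size of the log2FC of these genes is therefore uncertain. CDH1, ESRP1 and GRHL2, which define epithelial cells, had at most 2 counts in any library. These marker levels moved with the line and hence with every difference below, and their part in those differences was not tested.

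YAP and TAZ are transcriptional coactivators without a DNA-binding domain of their own. When the kinases of the Hippo pathway (the STK3 and STK4 kinases acting on LATS1 and LATS2) are active, for example at high cell density, YAP and TAZ are phosphorylated and kept out of the nucleus or degraded. When the kinases are inactive or the cell is spread and under tension, YAP and TAZ enter the nucleus and bind TEAD factors, which recognize the letters GGAATG or close variants. CCN1 (also called CYR61) and CCN2 (also called CTGF) encode secreted matricellular proteins, ANKRD1 encodes an ankyrin repeat protein, and AMOTL2 encodes a junctional angiomotin that binds YAP. In endothelial cells, this pathway is known for its response to blood flow, junctions and matrix stiffness. The activity of YAP and TAZ is set largely at the protein level, which RNA-seq does not measure.

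To show where TEAD letters lie beside the genes, the 250 bases before each annotated transcript start in the RefSeq promoter table (GRCh38.p14) were searched for GGAATG on both strands, which reads as CATTCC on the opposite strand. The table held windows for 7 of the 10 genes, 10 windows in all, and CCN1, TEAD1 and TEAD4 had no entry. The windows with a match are printed 5′ to 3′ on the strand of the gene, with the matched letters in capitals. They are CCN2 at chr6:131951373-131951622 (minus strand), ANKRD1 at chr10:90921088-90921337 (minus strand), the second of the AMOTL2 windows at chr3:134374448-134374697 (minus strand) and YAP1 at chr11:102110197-102110446 (plus strand).
CCN2: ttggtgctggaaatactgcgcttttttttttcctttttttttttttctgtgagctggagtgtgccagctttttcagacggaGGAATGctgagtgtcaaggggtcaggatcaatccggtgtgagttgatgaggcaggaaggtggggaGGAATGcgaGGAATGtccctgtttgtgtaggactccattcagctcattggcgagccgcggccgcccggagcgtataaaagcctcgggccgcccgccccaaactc
ANKRD1: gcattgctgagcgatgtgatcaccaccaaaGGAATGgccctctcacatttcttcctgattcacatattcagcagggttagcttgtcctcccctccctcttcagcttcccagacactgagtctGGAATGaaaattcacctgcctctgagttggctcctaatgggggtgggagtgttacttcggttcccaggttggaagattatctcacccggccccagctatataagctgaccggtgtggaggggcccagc
AMOTL2: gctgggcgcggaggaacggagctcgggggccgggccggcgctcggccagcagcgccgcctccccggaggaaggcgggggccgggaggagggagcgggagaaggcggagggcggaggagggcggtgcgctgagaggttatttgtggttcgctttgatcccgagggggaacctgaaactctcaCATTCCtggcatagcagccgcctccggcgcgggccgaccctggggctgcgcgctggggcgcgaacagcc
YAP1: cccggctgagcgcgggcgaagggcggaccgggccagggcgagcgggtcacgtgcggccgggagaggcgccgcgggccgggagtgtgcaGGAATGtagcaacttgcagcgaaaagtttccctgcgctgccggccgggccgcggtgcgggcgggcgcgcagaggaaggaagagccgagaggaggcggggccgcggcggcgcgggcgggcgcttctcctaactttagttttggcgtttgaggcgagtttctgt

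The CCN2 window held 3 matches, which began 169, 104 and 95 bases before the start. The ANKRD1 window held 2, at 220 and 128 bases. It also held 1 match to TGANTCA, a loose form of the AP-1 letters in which N is any base. These letters were searched on both strands, and the match did not overlap a TEAD match. It read TGATTCA, which lacks the C or G that the usual AP-1 letters have in the middle. AMOTL2 had 1 match at 69 bases, on the opposite strand, in a window inside the annotated gene that precedes a start downstream of the outermost one, and YAP1 had 1 at 162 bases. The windows of WWTR1, TEAD2 and TEAD3 and the other AMOTL2 window had none, which says only that these letters were not in those windows. Of all 35116 windows of the same length in the table, 11.9% held at least 1 TEAD match, 0.940% at least 2 and 0.0826% at least 3. At least 1 match to the loose letters TGANTCA was found in 6.57% of them. A match is a run of letters, not a measured binding site.

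All 10 genes differed between the lines at an adjusted p under 0.05 (edgeR quasi-likelihood test, Benjamini-Hochberg adjustment over all tested genes). Of all 16310 tested genes, 85.8% passed that threshold, 42.6% higher and 43.3% lower in EA.hy926, so the count of 10 stood against a high background. WWTR1 and TEAD4 were higher in EA.hy926 and the other 8 genes were lower. With an absolute log2FC over 1 required as well, 6 of the 10 genes passed, against 35.5% of all tested genes. These were WWTR1, which was higher (19.1% of tested genes were), and TEAD1, TEAD3, CCN2, ANKRD1 and AMOTL2, which were lower (16.4% were). The median log2FC of the 10 genes was -0.97, and that of all tested genes was -0.01. The CPM ranges of the lines did not overlap for any of the 10 genes, which was the case for 77.4% of all tested genes. Positive log2FC values are higher in EA.hy926, and the error given is the standard error (SE). CPM values are relative to library sizes scaled by the trimmed mean of M values (TMM).

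**Figure D1:**
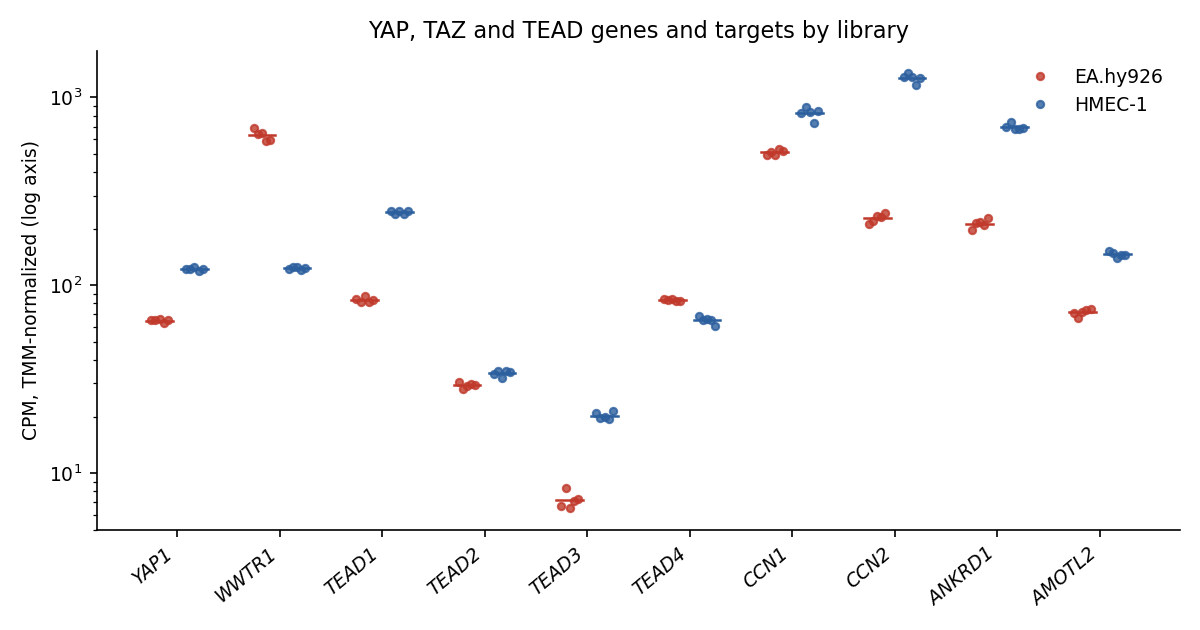
CPM (log axis) of the 10 genes in each library, with EA.hy926 in red and HMEC-1 in blue, 5 points each, and a line at the mean. WWTR1 and TEAD4 lie higher in EA.hy926, the other 8 genes lie higher in HMEC-1, and no gene's points overlap between the lines.

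**Figure D2:**
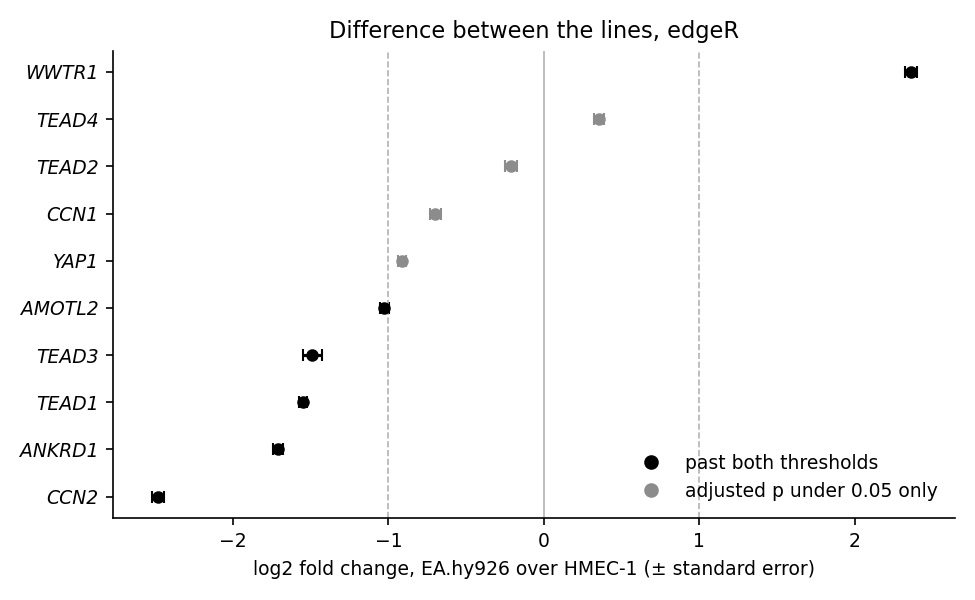
The log2FC of each gene (EA.hy926 over HMEC-1) with its SE as the error bar, and dashed lines at -1 and 1. The values run from 2.36 for WWTR1 to -2.48 for CCN2, and 4 genes lie between the dashed lines.

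YAP1 and WWTR1 encode the coactivators, and they differed in opposite directions. WWTR1 (ENSG00000018408, chr3:149517235-149736714, minus strand, GRCh38) measured 685, 641, 649, 587 and 595 CPM in EA.hy926 replicates 1 to 5 and 122, 124, 125, 121 and 123 CPM in HMEC-1. Its level was 5.13-fold higher in EA.hy926 (log2FC 2.36, SE 0.036, adjusted p 4.6e-23). The EA.hy926 libraries were all far above the HMEC-1 libraries, and they spread more (SD 40.6 against 1.56 CPM, n = 5 each).

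YAP1 (ENSG00000137693, chr11:102110447-102233424, plus strand) measured 65.1, 65.1, 65.9, 63.0 and 65.0 CPM in EA.hy926, and HMEC-1 had 122, 123, 125, 119 and 122 CPM. It was 1.89-fold higher in HMEC-1 (log2FC -0.92, SE 0.025, adjusted p 1.3e-18), which is short of the fold threshold. Scaled by library totals alone, YAP1 had a log2FC of -1.05 and passed it, a setting that shifted the log2FC of all tested genes by a median of -0.13. The lines were cleanly separated for this gene, with little spread inside either.

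Exon length differs between genes, so levels of different genes were compared as CPM per kilobase (kb) of exon. On that scale, WWTR1 made up 88.0 ± 0.572% (SD, n = 5) of the summed level of YAP1 and WWTR1 in EA.hy926 and 43.2 ± 0.173% in HMEC-1. The sum itself was 85.9 ± 4.97 CPM per kb in EA.hy926 and 34.1 ± 0.491 CPM per kb in HMEC-1. The ratio of WWTR1 to YAP1 was thus 6.91 to 7.95 across EA.hy926 libraries and 0.753 to 0.766 across HMEC-1 libraries. The difference of the log2 ratios was 3.27 (two-sided exact permutation test, p = 0.00794, adjusted p = 0.00992 over 5 ratios), where p cannot fall below 0.00794 with 5 libraries a line. WWTR1 and YAP1 differed in opposite directions without overlap, so this p was fixed by those differences and is no further test. Per kb of exon, WWTR1 stood above YAP1 in EA.hy926, and the order was the opposite in HMEC-1. The HMEC-1 order rested on exon length (8353 bases for WWTR1, 6311 for YAP1). Mean CPM there was 123.0 for WWTR1 and 122.2 for YAP1. Exon length covered all annotated exons of a gene, and which transcripts were expressed was not examined.

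Exons of other annotated genes covered 9.1% of the exonic bases of WWTR1 and 10.1% of those of YAP1, all on the opposite strand, and whether strand was used in counting is not given in the sources used here. The antisense gene WWTR1-AS1 had 24 to 51 counts in EA.hy926 libraries and 3 to 16 in HMEC-1 libraries, beside 21275 to 25306 and 4292 to 5741 counts of WWTR1. The antisense gene ENSG00000277459 at YAP1 had 8 to 17 and 28 to 45 counts, beside 2162 to 2419 and 4286 to 5758 counts of YAP1. Among the 20 tested genes within 1 Mb of WWTR1, the median log2FC was 1.10, and 10 were higher and 0 lower in EA.hy926 past both thresholds. Around YAP1, 11 neighbours had a median of 0.80, with 5 higher and 1 lower, against the direction of YAP1 itself. Of all tested genes, 19.1% were higher and 16.4% lower past both thresholds. The neighbours' median was 0.81 for CCN1 and 0.27 for CCN2, also against the direction of the gene. It was -0.59 for ANKRD1, -0.34 for AMOTL2 and -0.15 for TEAD2, and -0.03 for TEAD1 and -0.05 for TEAD4. Whether a gene and its neighbours share a cause was not tested.

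**Figure D3:**
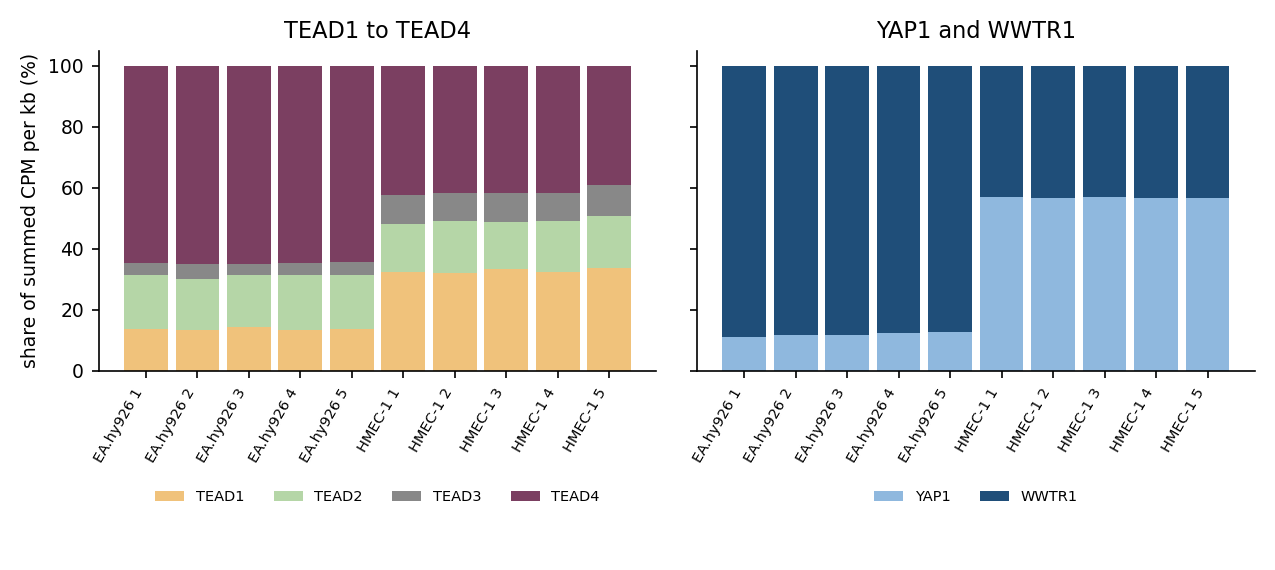
Stacked bars of the share (%) of each gene in the summed CPM per kb of its family in each library, with TEAD1 to TEAD4 in the left panel and YAP1 with WWTR1 in the right panel. WWTR1 took 88.0% in EA.hy926 and 43.2% in HMEC-1 on average, and TEAD4 took 64.7% and 41.2%.

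The 4 TEAD genes encode the DNA-binding partners of YAP and TAZ. TEAD1 (ENSG00000187079, chr11:12674421-12944737, plus strand) measured 84.0, 81.9, 87.9, 81.4 and 83.5 CPM in EA.hy926, and HMEC-1 had 248, 239, 249, 241 and 247 CPM. It was 2.92-fold higher in HMEC-1 (log2FC -1.55, SE 0.027, adjusted p 3.8e-22). Every HMEC-1 library was well above every EA.hy926 library.

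TEAD3 (ENSG00000007866, chr6:35473597-35497079, minus strand) had the lowest level of the family. It measured 6.71, 8.35, 6.52, 7.13 and 7.25 CPM in EA.hy926 and 20.9, 19.6, 19.8, 19.3 and 21.4 CPM in HMEC-1. It was 2.81-fold higher in HMEC-1 (log2FC -1.49, SE 0.061, adjusted p 1.4e-15). The lines were apart, with EA.hy926 replicate 2 the highest of its line. Of the 23 tested neighbours of TEAD3 within 1 Mb, 13 were lower and 0 higher in EA.hy926 past both thresholds, with a median log2FC of -1.07. Of all tested genes, 16.4% were lower and 19.1% higher.

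TEAD4 (ENSG00000197905, chr12:2959330-3040676, plus strand) was the TEAD gene that was higher in EA.hy926. It measured 84.98, 83.3, 84.2, 82.4 and 82.4 CPM in EA.hy926 and 69.0, 65.5, 66.0, 65.7 and 60.6 CPM in HMEC-1. It was 1.28-fold higher in EA.hy926 (log2FC 0.35, SE 0.031, adjusted p 8.0e-10). Every EA.hy926 library was above every HMEC-1 library, and the fold difference was small beside those of TEAD1 and TEAD3.

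TEAD2 (ENSG00000074219, chr19:49340595-49362457, minus strand) measured 30.7, 27.99, 28.9, 29.7 and 29.5 CPM in EA.hy926 and 33.6, 35.1, 31.9, 34.8 and 34.7 CPM in HMEC-1. It was 1.16-fold higher in HMEC-1 (log2FC -0.21, SE 0.038, adjusted p 3.3e-05), the smallest difference of the 10 genes. Exons of the opposite-strand gene CD37 covered 10.7% of its exonic bases, and CD37 had 250 to 326 counts in EA.hy926 libraries and 246 to 267 in HMEC-1 libraries beside 929 to 1142 and 1177 to 1471 counts of TEAD2. Reads of the shared stretch cannot be assigned without the strand, so this small difference is uncertain.

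Per kb of exon, the 4 TEAD genes summed to 56.7 ± 0.668 CPM per kb (SD, n = 5) in EA.hy926 and 69.6 ± 1.17 CPM per kb in HMEC-1. TEAD4 took 64.7 ± 0.242% of that sum in EA.hy926 and 41.2 ± 1.33% in HMEC-1. TEAD1 took 13.8 ± 0.355% and 32.9 ± 0.742%. The TEAD3 share was 4.16 ± 0.440% and 9.51 ± 0.453%, and the TEAD2 share was 17.4 ± 0.519% and 16.4 ± 0.762%. On this scale, TEAD4 had the largest share of the family in both lines. TEAD1 came next in HMEC-1 but stood behind TEAD2 in EA.hy926. This order rested on exon length (10700 bases for TEAD1, 2980 for TEAD2 and 2275 for TEAD4). In mean CPM, TEAD1 was the highest in HMEC-1 (244.8, against 65.4 for TEAD4). In EA.hy926, mean CPM was 83.7 for TEAD1, 83.4 for TEAD4 and 29.4 for TEAD2.

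The log2 ratio of TEAD4 to TEAD1 was higher in EA.hy926 by 1.90 and that of TEAD2 to TEAD1 by 1.34 (exact permutation test, p = 0.00794 and adjusted p = 0.00992 for each). TEAD4 and TEAD1 differed in opposite directions without overlap, so the p of their ratio was fixed by those differences. In linear terms and per kb of exon, TEAD4 was 4.51 to 4.78 times TEAD1 in EA.hy926 and 1.15 to 1.31 times TEAD1 in HMEC-1. The log2 ratio of TEAD3 to TEAD1 was -1.73 ± 0.17 in EA.hy926 and -1.79 ± 0.051 in HMEC-1 (SD, n = 5), a difference of 0.056 that did not pass (exact permutation test, p = 0.540). Without EA.hy926 replicate 2, that difference was -0.0068.

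The 4 target genes were all lower in EA.hy926, by unequal amounts. CCN2 (ENSG00000118523, chr6:131948176-131951372, minus strand) measured 212, 219, 235, 230.3 and 241 CPM in EA.hy926 and 1288, 1358, 1280.4, 1161 and 1273 CPM in HMEC-1. It was 5.59-fold higher in HMEC-1 (log2FC -2.48, SE 0.039, adjusted p 8.1e-23), the largest difference of the 10 genes. Both lines expressed it at a high level, and the lines lay far apart. The opposite-strand gene LINC01013 covered 11.9% of its exonic bases, with 30 to 46 counts in EA.hy926 libraries and 0 to 5 in HMEC-1 libraries, beside 7284 to 8954 and 45162 to 59044 counts of CCN2.

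ANKRD1 (ENSG00000148677, chr10:90912096-90921087, minus strand) measured 198, 214, 216, 209.5 and 228 CPM in EA.hy926, and HMEC-1 had 696, 743, 678, 683 and 686 CPM. It was 3.27-fold higher in HMEC-1 (log2FC -1.71, SE 0.034, adjusted p 3.9e-21). In HMEC-1, replicate 2 lay above 4 closely grouped libraries.

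AMOTL2 (ENSG00000114019, chr3:134355347-134375479, minus strand) measured 71.3, 66.9, 72.2, 73.6 and 75.0 CPM in EA.hy926 and 152, 149, 139.8, 145 and 146 CPM in HMEC-1. It was 2.04-fold higher in HMEC-1 (log2FC -1.03, SE 0.032, adjusted p 9.1e-18). The log2FC was just past the fold threshold, and without EA.hy926 replicate 2, the lowest EA.hy926 library for this gene, it was -0.99 and no longer passed, which left 5 of the 10 genes past both thresholds.

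CCN1 (ENSG00000142871, chr1:85580761-85584589, plus strand) measured 493, 511, 495, 533 and 519 CPM in EA.hy926, and HMEC-1 had 831, 888, 833, 736 and 847 CPM. It was 1.62-fold higher in HMEC-1 (log2FC -0.70, SE 0.037, adjusted p 1.7e-13) and did not pass the fold threshold. The lines did not overlap, and the spread inside HMEC-1 was the larger (SD 56.1 against 16.6 CPM).

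CCN1 and CCN2 are closely related genes, but their order per kb differed between the lines. The mean ratio of CCN2 to CCN1 was 0.705 in EA.hy926 and 2.43 in HMEC-1, a difference of -1.79 in the log2 ratio (exact permutation test, p = 0.00794, adjusted p = 0.00992). CCN1 was the more abundant in every EA.hy926 library, with a ratio of at most 0.750, and CCN2 in every HMEC-1 library, with a ratio of at least 2.38.

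Ordered by CPM per kb of exon in EA.hy926, CCN1 was first (138 ± 4.48, SD, n = 5), followed by ANKRD1 (119 ± 6.13), CCN2 (97.3 ± 5.04), WWTR1 (75.6 ± 4.86) and TEAD4 (36.7 ± 0.507). AMOTL2 (11.1 ± 0.479), YAP1 (10.3 ± 0.176) and TEAD2 (9.85 ± 0.336) came next, and each overlapped its neighbour in this order over the libraries. TEAD1 (7.83 ± 0.241) and TEAD3 (2.36 ± 0.233) were last. Per kb, the targets other than AMOTL2 were thus the highest of the group, and WWTR1 stood above every TEAD gene. In mean CPM, without exon length, WWTR1 was the highest of the 10 genes in EA.hy926 (631, against 510 for CCN1).

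In HMEC-1, CCN2 (544 ± 30.3 CPM per kb), ANKRD1 (389.5 ± 14.9) and CCN1 (224 ± 15.2) were again the highest, in another order. TEAD4 (28.7 ± 1.32) came next, and TEAD1 (22.9 ± 0.449) and AMOTL2 (22.6 ± 0.717) overlapped over the libraries. YAP1 (19.4 ± 0.315), WWTR1 (14.7 ± 0.187), TEAD2 (11.4 ± 0.437) and TEAD3 (6.62 ± 0.300) followed without overlap. Per kb, WWTR1 stood below TEAD4, TEAD1 and YAP1 in this line, but its mean CPM (123.0) was above that of TEAD4 (65.4).

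Within HMEC-1, replicate 4 had the lowest CCN1 (736 CPM, 88.9% of the line's mean) and the lowest CCN2 (1161 CPM, 91.3%), but not the lowest ANKRD1 or AMOTL2. It also had the lowest YAP1 (97.6% of the line's mean), WWTR1 (98.2%) and TEAD3 (95.6%). It was thus lowest for 5 of the 10 genes and above the line's mean for 2. EGR1, a growth factor-induced transcription factor of the immediate early genes, measured 16.4 CPM in that library and 43.7 to 59.5 CPM in the other HMEC-1 libraries. FOS, a component of AP-1, measured 1.202 CPM there and 2.04 to 3.16 CPM in the others, JUNB measured 13.2 CPM against 15.2 to 18.2, and DUSP1, a phosphatase that switches off MAP kinases, measured 118 CPM against 135 to 156. Replicate 4 was the lowest HMEC-1 library for 8 of 18 tested immediate early genes, and replicate 3 for 5. It was the highest for 2, FOSB (2.31 CPM against 1.45 to 1.81) and NR4A1 (2.50 CPM against 1.45 to 2.17), and lay above the line's mean for 6 of the 18, so the list was mixed in this library. FOS, FOSB, JUNB, DUSP1 and NR4A1 were chosen after their values were seen, and the part of that library's state in CCN1 and CCN2 was not tested. Without it, the log2FC between the lines was -0.75 for CCN1, -2.53 for CCN2 and -5.61 for EGR1. Replicate 2 was the highest HMEC-1 library for 11 of the 18 immediate early genes and lay above the line's mean for 16. The shares of all tested genes that were lowest or highest in each library were not computed. These counts may therefore not be particular to the genes listed.

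**Figure D4:**
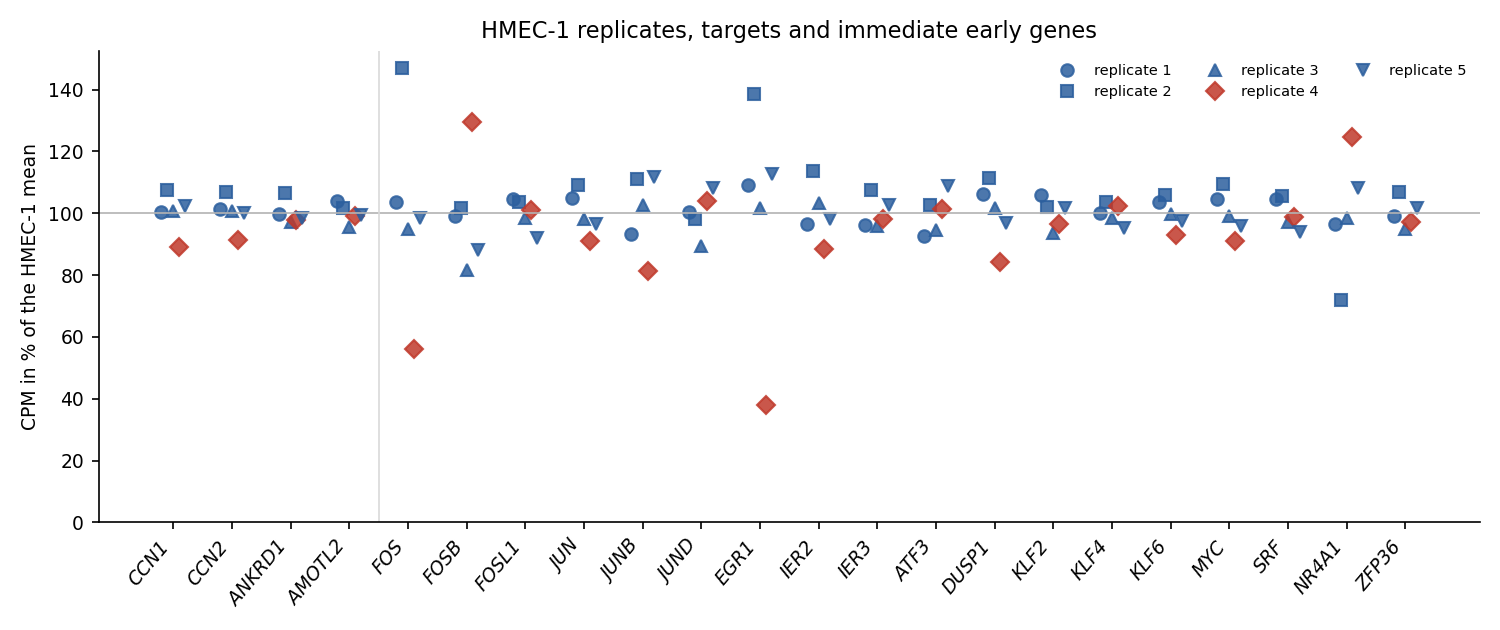
CPM in each HMEC-1 library as a percentage of the line's mean for the 4 targets (left of the vertical line) and the 18 tested immediate early genes, with a symbol for each replicate and replicate 4 as a red diamond. Replicate 4 lies lowest for CCN1 (88.9%), CCN2 (91.3%), EGR1 (38.1%), FOS, JUNB and DUSP1, highest for FOSB and NR4A1, and close to the others for ANKRD1 and AMOTL2.

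Among 9503 genes with a mean of at least 10 CPM, those whose log2 CPM followed CCN1 most closely over the 10 libraries, after each line's mean was taken off, were CKS2 (Pearson's r 0.90), MALSU1 (0.88) and DHRS2 (0.88). For CCN2, they were CCDC138 (0.92), FBXO42 (0.91) and PLAU (0.91). These values describe the spread inside the lines, and the genes share the same libraries and scaling. They were picked as the highest among 9503 genes over 10 libraries, where values this high can arise by chance. Whether any of these genes varies with CCN1 or CCN2 was not tested.

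Around these 10 genes, the kinases and scaffolds of the Hippo pathway were looked at as a list of 25 genes, all tested. Of these, 7 were higher and 15 lower in EA.hy926 at the adjusted p threshold, and 2 and 6 past both thresholds, which is 32% past both against 35.5% of all tested genes. The median log2FC of the list was -0.50. FAT1 (log2FC -5.81) and DCHS1 (-5.69), large cadherins at the top of the pathway, were lower, with means of 6.95 ± 0.5263 and 2.11 ± 0.272 CPM (SD, n = 5) in EA.hy926 and 388 ± 20.9 and 109 ± 6.42 CPM in HMEC-1. STK38L (2.05), a kinase related to LATS, and FRMD6 (1.33), a FERM domain scaffold, were higher in EA.hy926.

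The core kinase genes, chosen for description after their values were seen, differed less. STK3 (log2FC -0.84), LATS1 (-0.67) and LATS2 (-0.65) were lower in EA.hy926 and STK4 (0.40) was higher. Of their MOB cofactors, MOB1A (-0.13) and MOB1B (-0.52) were lower. The upstream genes NF2 (-1.38), WWC1 (-2.16) and WWC2 (-1.26) and the kinase gene STK38 (-1.70) were lower past both thresholds, and FAT4 (0.72), a relative of FAT1, was higher. The 3 genes that did not pass were SAV1 (-0.06, adjusted p 0.059 by edgeR), TAOK2 (0.04, 0.20) and AJUBA (0.01, 0.86). With library totals all 3 passed as lower in EA.hy926, with log2FC of -0.20, -0.098 and -0.13, and SAV1 passed in 7 of 17 settings. Exons of other genes covered 31.9% of the exonic bases of SAV1 and 21.8% of those of WWC2.

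VGLL proteins compete with YAP and TAZ for TEAD factors. VGLL4 was 3.95-fold higher in EA.hy926 (log2FC 1.98, 108 ± 6.11 against 27.4 ± 0.905 CPM, SD, n = 5), and exons of other genes covered 23.8% of its exonic bases. VGLL3 was also higher (0.69, chosen after its value was seen), and VGLL1 and VGLL2 had 0 counts in every library, where 3 counts correspond to 0.0651 to 0.0904 CPM. Of 6 relatives of the CCN and angiomotin targets, 4 were tested, and 2 were higher and 2 lower in EA.hy926 at the adjusted p threshold, which 85.8% of all tested genes passed. CCN3 (4.17) and CCN5 (3.39) were higher, at means of 4.79 and 7.46 CPM in EA.hy926, whereas AMOT (-1.09) and AMOTL1 (-0.54) were lower. CCN4 had 0 to 3 counts and CCN6 1 to 12 counts over the libraries. CCN3 and CCN5 thus differed in the opposite direction from CCN1 and CCN2, at far lower CPM.

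A list of 18 other YAP and TAZ target genes was mixed in direction. All 18 were tested, 7 were higher and 11 lower in EA.hy926 at the adjusted p threshold, and 3 and 3 past both thresholds, which is 33.3% past both against 35.5% of all tested genes. The median log2FC was -0.27. MYOF, a membrane repair protein gene, was higher (1.44, 1180 ± 15.4 against 436 ± 14.1 CPM, SD, n = 5), as were GADD45A (1.05, but 0.91 and short of the fold threshold with library totals), a stress response gene, and FOXF2, a transcription factor gene. FOXF2 measured 2.40 ± 0.455 CPM in EA.hy926 and had 0 to 1 count in HMEC-1 libraries, which makes it at least 28.1-fold higher against the level of 3 counts in a library.

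TGFB2 (log2FC -4.45), a TGF-beta ligand gene, F3 (-2.10), the tissue factor gene, and NUAK2 (-1.39), a kinase gene, were lower. Exons of other genes covered 34.2% of the exonic bases of TGFB2, and F3 was near the limit of detection, with mean CPM of 0.0980 in EA.hy926 and 0.439 in HMEC-1. AXL (-0.16), a receptor tyrosine kinase gene, was among the genes with a small difference. AXL, GADD45A and NUAK2 were chosen after their values were seen. LATS2 and PTPN14 were in this list and in that of the kinases and scaffolds.

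Since AP-1 and SRF with its MRTF coactivators share many targets with YAP and TAZ, their genes were listed too. Of 20 immediate early genes, 18 were tested, 6 were higher and 12 lower in EA.hy926, and 1 and 6 past both thresholds, which is 38.9% past both against 35.5% of all tested genes, with a median of -0.52. EGR1 (log2FC -5.39) and KLF4 (-3.20) had the lowest values, DUSP1 (-1.55) and FOS (-1.47) were lower as well, and FOSL1, an AP-1 component, was higher (1.01), at the edge of the fold threshold. Of 12 cytoskeletal targets of SRF and MRTF, 5 were higher and 6 lower, and 2 and 4 past both thresholds, which is 50% past both against 35.5%, with a median of -0.11. ACTA2 (2.68) and TPM2 (2.51) were higher, and MYL9 was lower (-9.85), with 0 to 7 counts in EA.hy926 libraries and 3400 to 4323 in HMEC-1 libraries, so the size of that difference is uncertain. CNN1 had at most 3 counts in EA.hy926 libraries and was at least 6.23-fold higher in HMEC-1 at 0.563 CPM, and exons of other genes covered 36.2% of the exonic bases of ACTA2. VCL did not pass (-0.02, adjusted p 0.51 by edgeR), but did as lower in EA.hy926 with library totals (-0.15).

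**Figure D5:**
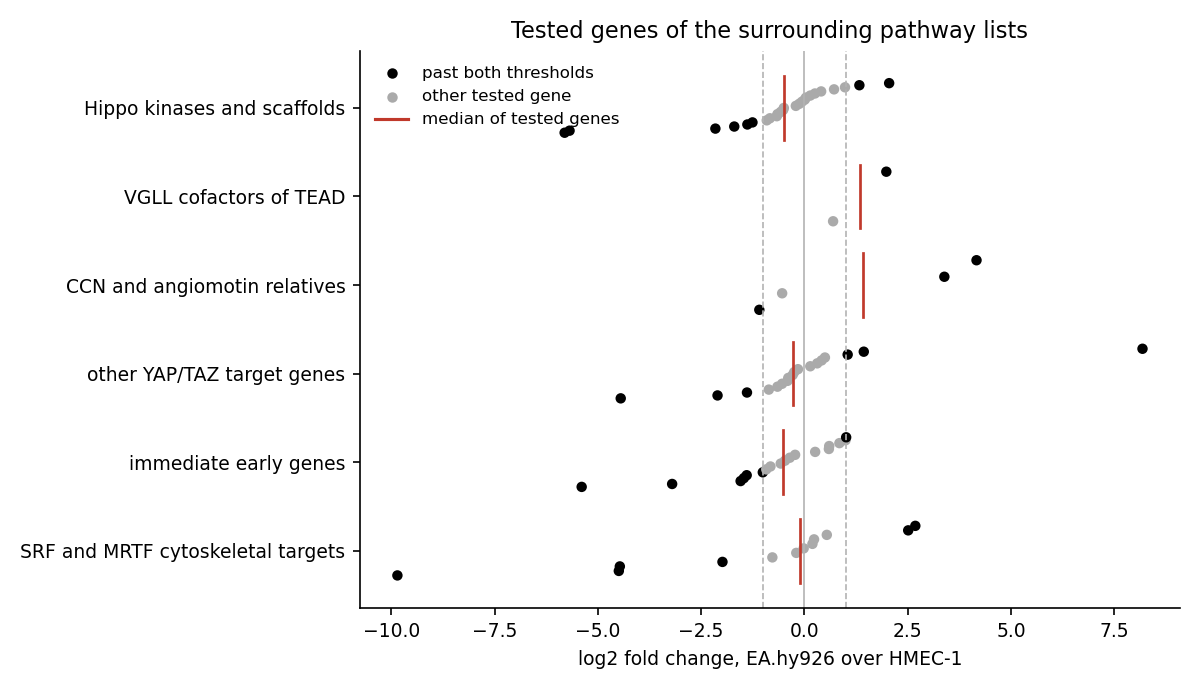
The log2FC (EA.hy926 over HMEC-1) of each tested gene of the 6 surrounding lists, with genes past both thresholds in black, the others in grey, a red line at the median of each list and dashed lines at -1 and 1. Genes lie on either side of 0 in each list except that of the VGLL cofactors, and the medians run from -0.52 for the immediate early genes to 1.42 for the CCN and angiomotin relatives.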

How the data were processed

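RNA-seq of 5 biological replicates each of EA.hy926 and HMEC-1 was used, with the line and replicate taken from the sample labels. Libraries were made from oligo(dT)-enriched mRNA and sequenced on an Illumina platform, and the authors aligned the reads to GRCh38 with HISAT2. Raw counts per gene are the values the authors deposited, before any normalization or filter. The methods of the paper name HTSeq as the counter, whereas the submitters' processing notes name featureCounts, with fastp and DESeq2. The counter's options, including strand, the annotation release and tool versions are not given in the sources used here.

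Symbols, coordinates and exon lengths came from GENCODE 44, which matched 56434 of 60448 genes. Genes were filtered with filterByExpr (minimum count 10, total 15), scaled by TMM and tested in edgeR 4.0.16 (R 4.3.3) by glmQLFit and glmQLFTest, with Benjamini-Hochberg adjustment and the study's thresholds (adjusted p 0.05, absolute log2FC 1). Log2 CPM carried a prior count of 2. Ratios within libraries (0.5 added to each count, per kb) were compared by exact permutation tests with scipy 1.17.1, two-sided. With 3 counts worth 0.0651 to 0.0904 CPM, all 10 genes lay far above the limit of detection. Intervals were not used, and p-values cover the spread between the replicates.

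The 10 genes and the lists were chosen with earlier results of these data known. Named genes were these 10, up to 4 genes a list past both thresholds (the highest and lowest 2 by log2FC), untested genes whose absence is stated, and the 3 genes most like CCN1 and CCN2. Others are said to have been chosen after their values were seen, as were STK3, STK4, LATS1, LATS2, MOB1A, MOB1B, NF2, WWC1, WWC2, STK38, FAT4, AMOTL1, SAV1, TAOK2, AJUBA, VCL, KDR, KRT7 and KRT18. Alternatives were DESeq2 1.42.0, limma-voom (limma 3.58.1), RLE factors, library totals, other filters, a replicate block, glmTreat and each library left out. The tests were first run on simulated counts in which few genes were changed. Most tested genes differ in the real data, so that run does not show how the tests behave here. Overlaps of exons were computed with bedtools 2.31.1.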

Additional observations from a re-analysis of the deposited data

Results flagged for a closer look

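Values of the 10 genes and of the list genes named were examined for a library far from the other 4 of its line by Dixon's criterion, which flags about 1 in 20 groups by chance, and 6 of 82 groups were flagged. Of the 10 genes, ANKRD1 was flagged in HMEC-1, where replicate 2 was highest at 743 CPM with a median of 686 CPM. ESAM was highest in EA.hy926 replicate 1 (249.996 CPM, median 232), as was CLDN7 (0.325 CPM, median 0.121). EPCAM was highest in HMEC-1 replicate 2 (0.539 CPM, median 0.196), and CLDN5 was lowest in HMEC-1 replicate 3 (1.11 CPM, median 1.52). FOXF2 had a count in HMEC-1 replicate 4 (0.0245 CPM) and 0 in the other HMEC-1 libraries.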

How the results depend on the processing

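All 10 genes passed the adjusted p threshold in each of the 17 settings that test against no difference, and 5 passed the glmTreat test against an absolute log2FC of 1. Over all settings 5 to 7 passed both thresholds, 5 to 6 when each library was left out. Of 170 recomputed log2FC values of the 10 genes, 168 kept their direction and side, the exceptions being YAP1 with library totals (-1.05) and AMOTL2 without EA.hy926 replicate 2 (-0.99). Past both thresholds were 4 to 6 of the other targets and 8 to 9 of the kinases and scaffolds. FOSL1 fell under the fold threshold in 7 settings (0.87 with library totals), as did GADD45A with library totals (0.91). The causes were not tested. Genes that had not passed changed sign, namely TAOK2 with library totals (-0.098), AJUBA with library totals (-0.13), without the filter (-0.0135) and over left-out libraries (-0.021 to 0.043), VCL (-0.038 to 0.0018) and KDR (-0.13 to 0.014). With library totals, TAOK2, AJUBA, VCL, KDR and SAV1 passed the adjusted p threshold as lower in EA.hy926, and SAV1 (-0.06) also without the filter and without each of 5 single libraries in turn, 7 settings in all. The TEAD3 to TEAD1 difference ranged from -0.0068 to 0.11 over left-out libraries. Libraries of the same replicate number did not deviate together (correlations -0.0228 to 0.0389), so the numbers were not treated as a pairing, and the replicate block changed no call of the 10 genes. Sign flips over the replicate block gave the same log2 ratio differences of 3.27 (WWTR1 to YAP1), 1.34 (TEAD2 to TEAD1), 1.90 (TEAD4 to TEAD1) and -1.79 (CCN2 to CCN1) with an adjusted p of 0.0781 by this exact permutation test, which 5 pairs cannot bring under the threshold. Depth limits F3, CNN1, MYL9, CLDN5, KRT19 and CLDN7 in EA.hy926 and FOXF2 and EPCAM in HMEC-1.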
